A study of Mus musculus with 13 samples.

Results

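PolII peaks that were called only after Kap1 knockdown (KD), in chromatin that carried H3K27ac but neither KAP1 nor H3K9me3, were examined in the murine hepatoma line Hepa 1-6. They were chosen from the 12862 peaks of the Kap1 KD PolII list. Of these, 8573 overlapped no control PolII peak, 7074 of those overlapped no KAP1 peak, 5480 also no H3K9me3 region, and 2321 (18.1% of the list) also overlapped an H3K27ac region by at least 1 bp. These 2321 are called the KD-only/H3K27ac peaks. PolII was profiled in cells fixed 5 days after lentiviral transduction, which the methods follow with puromycin selection. The source labels of the samples instead describe transfection with a plasmid. One library carried an shRNA against KAP1. For the other the labels name a control shRNA, where the methods name an empty pLKO vector. The lists of KAP1 and of the 3 histone marks came from Hepa 1-6 cells in standard culture, so that no mark was measured after the knockdown. Each list came from 1 library, with no replicate and no known read depth. A peak absent from the control list can therefore be a site that was called in 1 library and missed in the other. The control list was also shorter, with 5015 PolII peaks against the 12862 of the Kap1 KD list. With the Kap1 KD list cut to its 5015 highest-scoring peaks, 701 peaks met the same criteria. The control peaks are numbered with gaps, and 417 of the KD-only/H3K27ac peaks (17.97%) lay where the flanking control peaks do not carry consecutive numbers, so that a control call could have been removed there before deposit. The share was 22.1% over the whole Kap1 KD list.

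PolII transcribes protein-coding genes and is found at gene starts, along gene bodies and also at enhancers, the distal elements that raise transcription from a promoter. H3K27ac marks active promoters and enhancers. H3K4me1 spreads over enhancers and the flanks of promoters, and is low at the start site itself. KAP1 is a corepressor that KRAB zinc finger proteins bring to DNA and that recruits heterochromatin proteins. The peaks described here had none of its called binding sites, the nearest KAP1 peak lying at a median of 26.96 kb and the nearest control PolII peak at a median of 53.4 kb. As a check of the cell line, H3K27ac lay over the promoters of the hepatocyte markers Alb, Afp, Hnf4a and Foxa2 and was absent from those of Apoa1, Apob, Ttr, Serpina1a and Tat. Of these, Foxa2 alone had control PolII. Of 8 markers of blood, endothelium, stromal and bile duct cells, the promoters of Col1a1 and Krt19 carried H3K27ac, and Cd68 carried control PolII.

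Sequence is shown first for both settings in which these peaks lay. Among the 1246 peaks centred beyond 3 kb of any protein-coding transcription start site (TSS), 28.2% held the letters TGANTCA within the 300 bp around the centre. These letters are their own reverse complement, so that both strands were read. They form the core recognised by AP-1, the dimers of Jun and Fos family proteins. The 6 highest-scoring distal peaks outside exons, at most 2000 bp wide, with C or G in the middle of a match within 100 bp of the centre are printed, a choice made after the values were seen. Each has the match in capitals and 50 bases on either side, on the plus strand of mm9.
Ier3-upstream site (chr17:35950294-35950400, plus strand): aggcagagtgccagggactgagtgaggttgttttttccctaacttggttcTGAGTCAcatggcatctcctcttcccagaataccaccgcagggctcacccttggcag
Cacng6-downstream site (chr7:3453424-3453530, plus strand): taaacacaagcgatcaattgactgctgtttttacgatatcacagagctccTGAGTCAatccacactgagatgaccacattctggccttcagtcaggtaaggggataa
Iffo2 intron site (chr4:139154877-139154983, plus strand): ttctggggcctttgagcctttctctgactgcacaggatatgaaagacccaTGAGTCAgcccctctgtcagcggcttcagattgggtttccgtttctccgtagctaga
Chromosome 15 intergenic site (chr15:62898220-62898326, plus strand): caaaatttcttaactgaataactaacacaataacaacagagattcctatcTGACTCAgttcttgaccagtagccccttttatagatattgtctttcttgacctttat
Ptprr intron site (chr10:115703981-115704087, plus strand): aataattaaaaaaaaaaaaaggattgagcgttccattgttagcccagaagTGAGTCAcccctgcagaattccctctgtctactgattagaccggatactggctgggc
Cdkn2b-side site (chr4:89094744-89094850, plus strand): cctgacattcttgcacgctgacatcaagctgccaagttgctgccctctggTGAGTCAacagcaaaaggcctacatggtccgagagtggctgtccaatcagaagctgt

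The Ier3-upstream site lay 8.35 kb before the TSS of Ier3, a stress-inducible gene, in a peak with a score of 137. The Cacng6-downstream site lay 28.1 kb past the TSS of Cacng6 in a peak with a score of 106, wholly inside H3K27ac. The Iffo2 and Ptprr sites were intronic, with peak scores of 104 and 100. The chromosome 15 site was 738 kb from the nearest TSS, in a peak with a score of 103 that was covered in full by both H3K27ac and H3K4me1. The last site, scoring 98, was intergenic, 138 kb from Cdkn2b, a cell cycle inhibitor gene. A match is a description of the letters and not a bound site.

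At promoters the sequence was of another kind. The 150 bases before the annotated gene start are printed for 3 of the highest-scoring genes of the lists examined further on, for which this stretch lay inside the peak and outside annotated exons. Capitals mark 4 motifs in either orientation. The GC box, recognised by Sp1, was searched as GGGCGG. The box of NF-Y was searched as CCAAT, the core of ETS factors as CCGGAAG, and the TATA box as TATAAA. None of the 4 strings lies within another, and the strand shown is that of the gene.
Cdk6 (chr5:3343743-3343892, plus strand): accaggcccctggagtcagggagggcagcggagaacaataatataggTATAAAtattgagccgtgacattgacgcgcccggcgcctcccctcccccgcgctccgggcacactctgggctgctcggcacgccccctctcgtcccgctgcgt
Nr2c2 (chr6:92041234-92041383, plus strand): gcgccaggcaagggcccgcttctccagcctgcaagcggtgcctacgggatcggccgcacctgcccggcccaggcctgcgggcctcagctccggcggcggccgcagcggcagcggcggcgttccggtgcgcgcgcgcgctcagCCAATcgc
Setdb1 (chr3:95161125-95161274, minus strand): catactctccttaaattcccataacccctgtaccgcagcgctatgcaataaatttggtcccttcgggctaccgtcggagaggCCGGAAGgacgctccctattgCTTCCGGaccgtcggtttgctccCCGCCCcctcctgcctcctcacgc

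Of these 3, only Cdk6 had a TATA box in this stretch. Nr2c2 had a CCAAT box. Setdb1 had ETS cores and a GC box. In the same 300 bp windows, the GC box was held by 50.9% of the 896 KD-only/H3K27ac peaks within 1 kb of a TSS and by 10.3% of the distal ones, and by 45.8% of the windows around all protein-coding gene starts. Over all Kap1 KD peaks it was held by 55.3% near a TSS and 7.55% beyond 3 kb, so that the share near a TSS was below that of the list. The ETS core was held by 16.4% and 3.29%, compared with 16.0% and 2.03% of all Kap1 KD peaks in the same settings and 11.3% of all starts. The TATA box was held by 5.25% and 14.3%, compared with 4.82% and 16.6% of all Kap1 KD peaks and 10.8% of all starts.

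The KD-only/H3K27ac peaks had scores and widths close to those of the whole Kap1 KD list, whose medians were 48 and 799 bp. The score is the whole number deposited with each PolII peak, whose meaning is not stated and which rose with peak width. Across these peaks Spearman's rank correlation of score and width was 0.970, a description over peaks that share 1 library. The median score was 46, with quartiles of 32 and 67 and a maximum of 545, and the median width was 763 bp, with quartiles of 490 and 1220 bp. For comparison, 1400 Kap1 KD peaks overlapped a control peak in chromatin with the same marks (shared peaks), and they had a median score of 91 and a median width of 1426 bp. Another 3159 KD-only peaks lacked all of KAP1, H3K9me3 and H3K27ac (unmarked peaks), with medians of 34 and 566 bp. The 1069 KD-only peaks with both KAP1 and H3K27ac and without H3K9me3 had medians of 49 and 790 bp. The KD-only/H3K27ac peaks thus sat between unmarked and shared peaks on both scales. By quintile of the Kap1 KD scores, 28.0% of them fell in the middle one and 8.79% in the highest.

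**Figure D1:**
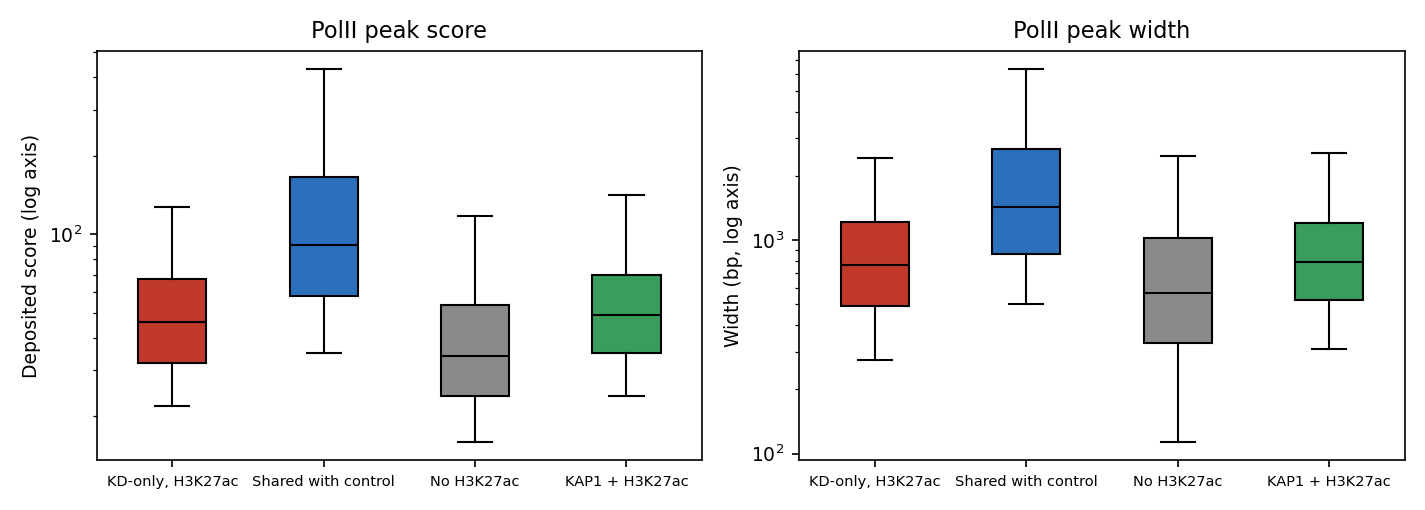
Deposited score (left, log axis) and width in bp (right, log axis) of 4 classes of Kap1 KD PolII peaks. Boxes span the quartiles with the median as a line, and whiskers reach the 5th and 95th percentiles; the KD-only peaks with H3K27ac have a median score of 46, the shared peaks 91.

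The criterion of 1 bp of H3K27ac chose these peaks and is described here without a test. The median peak had 61.0% of its length inside H3K27ac, 535 lay inside it entirely, and 273 had 100 bp or less of it. In all, 1602 peaks overlapped 1 region, 655 overlapped 2, and 64 overlapped 3 or more. Just inside the criterion were peaks with 1 bp of H3K27ac, at chr1:50869020-50869448, chr1:155147477-155147811 and chr15:38572502-38573058, with scores of 27, 25 and 31. Just outside it were peaks with a gap of 1 bp to a region, for example at chr2:69639995-69640249 and chr3:130412103-130412313, with scores of 27 and 18. On the side of the control PolII list, 43 peaks lay within 1 kb of a control peak and 446 (19.2%) within 10 kb. The closest were at chr2:155720719-155721172 near Uqcc (27 bp from a control peak), chr3:107888502-107890021 near Ampd2 (99 bp) and chr10:92772342-92773530 near Elk3 (142 bp). Of the 57562 H3K27ac regions, 3049 (5.30%) overlapped a KD-only/H3K27ac peak. Their median width was 1027 bp, against 854 bp for those under a shared peak and 505 bp for the rest.

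The KD-only/H3K27ac peaks lay at gene starts about as often as the Kap1 KD list as a whole, less often than the shared peaks and more often than the unmarked peaks. The centre lay within 1 kb of a TSS in 896 of 2321 (38.6%, 95% Wilson interval 36.6 to 40.6%), the same share as over the whole Kap1 KD list (4959 of 12862, 38.6%). It was 62.9% (60.3 to 65.4%) of the shared peaks, an odds ratio of 0.372 (0.324 to 0.426, adjusted p = 1.84e-46, exact test). It was 24.5% (23.0 to 26.0%) of the unmarked peaks, an odds ratio of 1.94 (1.73 to 2.18, adjusted p = 1.06e-28, exact test). It was 48.4% (45.4 to 51.4%) of the KD-only peaks with KAP1 and H3K27ac, an odds ratio of 0.671 (0.580 to 0.777, adjusted p = 1.59e-07, exact test). Here and below, tests are Fisher's exact tests, two-sided, adjusted over 8 comparisons by the Benjamini-Hochberg method. Peaks are not replicate samples, so these p-values describe positions in the lists and not the conditions, and the intervals cover counting error over peaks only. Where overlap counted only if it covered at least 50% of the peak or of the other region, the contrast with unmarked peaks had an odds ratio of 1.12 (adjusted p = 0.0671, exact test). It was 3.17 in the upper 50% of the list by score and 4.14 with a Kap1 KD list cut to the length of the control list.

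Beyond the gene starts, 179 peaks (7.71%) lay at 1 to 3 kb, 36 (1.55%) in exons, 502 (21.6%) in introns and 708 (30.5%) between genes. The whole list had 8.51%, 3.265%, 18.4% and 31.2%, in the same order. In all, 53.7% of the KD-only/H3K27ac peaks lay beyond 3 kb, compared with 52.9% of the whole list. Of those near a TSS, 59.9% (56.7 to 63.1%) were centred downstream of it, with a median offset of 40 bp, and 589 were within 250 bp. Gene ends were rare among the peaks centred beyond 1 kb of a TSS. The centre lay within 1 kb of one in 43 of 1425 (3.02%, 2.25 to 4.04%), compared with 47 of 520 shared peaks (9.04%, 6.86 to 11.8%), an odds ratio of 0.313 (0.204 to 0.480, adjusted p = 1.94e-07, exact test). Within quintiles of the score this odds ratio was 0.631 (adjusted p = 0.117, Mantel-Haenszel test, n = 1425 and 520 peaks), which was not past the threshold. Counted over all peaks of a class, such gene-end sites were 1.85% of the KD-only/H3K27ac peaks and 5.225% of the whole list. They were 8.55% of the unmarked peaks and 1.87% of the KD-only peaks with KAP1 and H3K27ac.

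H3K4me1, which the choice of peaks did not use, overlapped 1579 of the 2321 (68.0%, 66.1 to 69.9%) and 46.1% of the whole Kap1 KD list. Its share was 20.4% (19.1 to 21.9%) among the unmarked peaks, an odds ratio of 8.29 (7.34 to 9.38, adjusted p = 2.07e-282, exact test). The unmarked peaks were set apart by lacking H3K27ac, which like H3K4me1 lies at enhancers and promoters and was listed in the same cells. This contrast is thus not independent of the choice of peaks. The H3K4me1 share was 66.4% (63.9 to 68.9%) among the shared peaks, an odds ratio of 1.08 (0.934 to 1.24, adjusted p = 0.357, exact test). Within quintiles of the score, however, the odds ratio against shared peaks was 1.99 (adjusted p = 1.43e-15, Mantel-Haenszel test, n = 2321 and 1400 peaks). It was 67.5% (64.7 to 70.3%) among the KD-only peaks with KAP1 and H3K27ac, an odds ratio of 1.02 (0.876 to 1.19, adjusted p = 0.782, exact test).

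**Figure D2:**
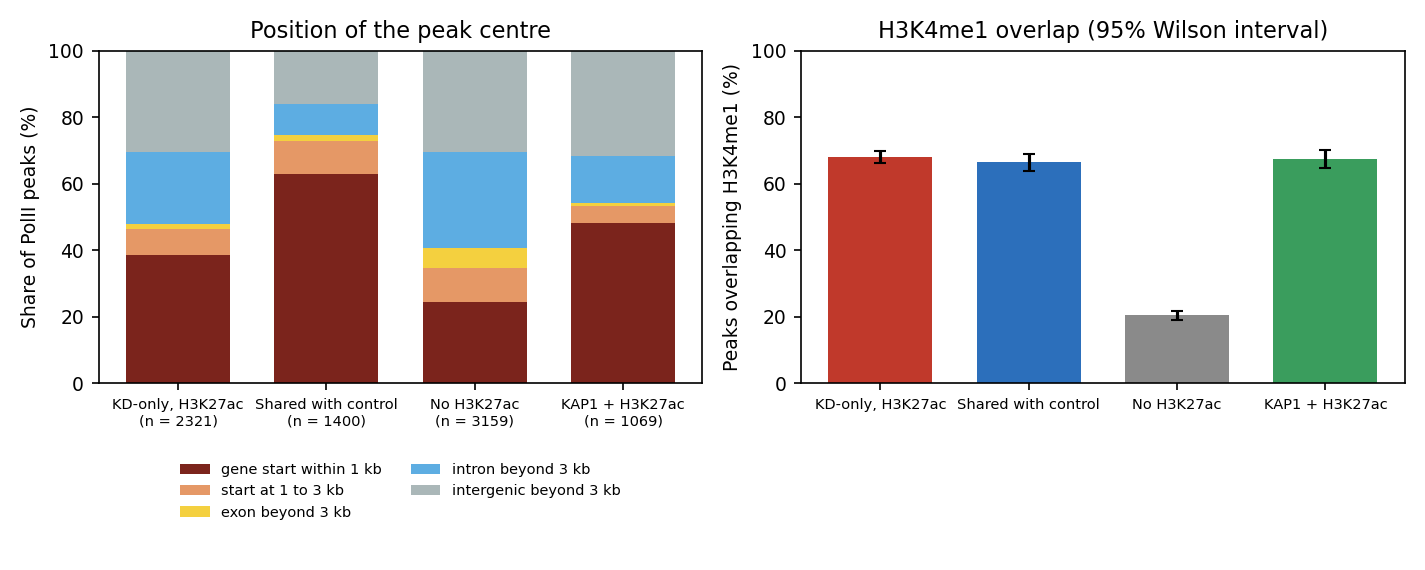
Left, share of PolII peaks (%) by the position of the peak centre in 4 classes of Kap1 KD peaks; right, share of each class overlapping H3K4me1 (%), with 95% Wilson intervals over peaks. The KD-only peaks with H3K27ac lie within 1 kb of a gene start in 38.6% of cases, and 68.0% overlap H3K4me1, compared with 20.4% of those without H3K27ac.

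H3K4me1 divided the KD-only/H3K27ac peaks by place. It overlapped 414 of 896 peaks near a TSS (46.2%, 43.0 to 49.5%) and 1016 of the 1246 distal ones (81.5%), an odds ratio of 0.194 (0.160 to 0.236, adjusted p = 2.19e-65, exact test). The highest share was that of introns, 86.5% (83.2 to 89.2%). Intergenic peaks had 78.3% (75.1 to 81.1%), and those at 1 to 3 kb had 83.2% (77.1 to 88.0%).

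Around a TSS with such a peak, both marks were rarer at the start than on its sides. H3K27ac covered 16.96% of these 896 positions at the TSS itself, 57.5% at 400 bp upstream and 57.0% at 700 bp downstream. H3K4me1 covered 7.14% at the TSS, 51.7% at 1 kb upstream and 66.4% at 1300 bp downstream. Around the distal peaks the dip was shallower, but it was measured from the peak centre and not from a TSS. These peaks and the shared peaks were chosen to overlap H3K27ac, so its high coverage near them follows from the choice. H3K27ac covered 68.9% of the centres, 80.8% at 600 bp before and 79.2% at 500 bp after, and fell to 21.4% and 20.8% at 5 kb. H3K4me1 covered 50.7% of the centres and 69.8% and 67.9% at 1 kb on either side. The shared peaks had the same form, with 15.3% for H3K27ac and 3.86% for H3K4me1 at the TSS, and 62.7% and 43.9% at the distal centres.

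**Figure D3:**
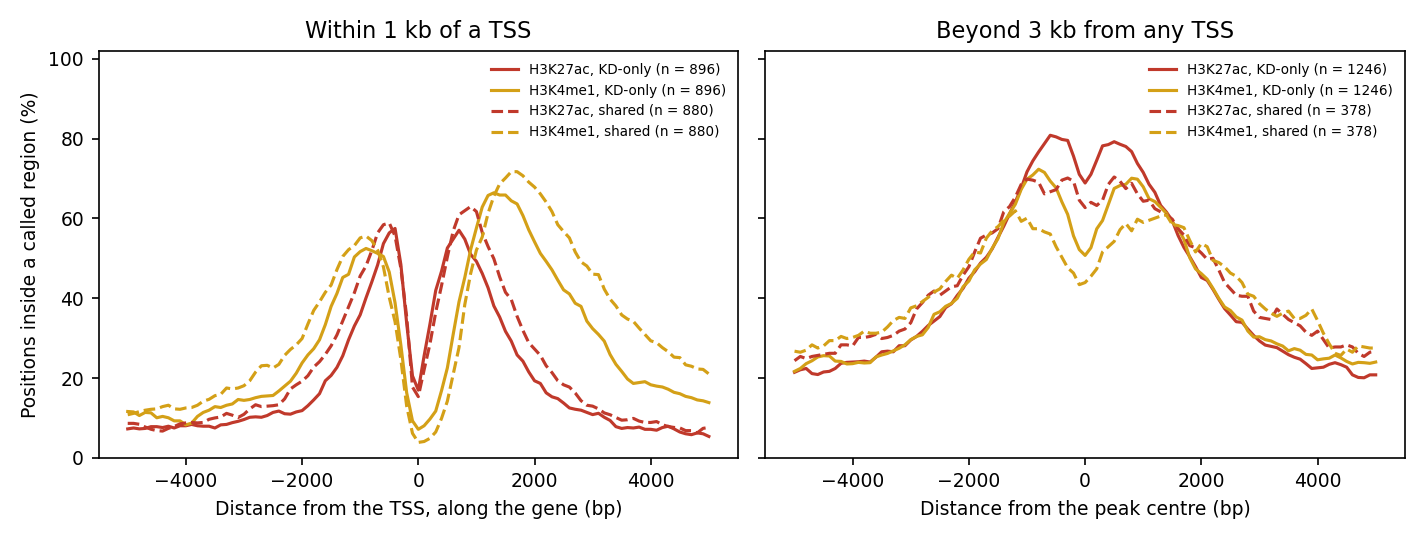
Share of positions (%) inside a called H3K27ac or H3K4me1 region against distance in bp, along the gene from the TSS for peaks within 1 kb of one (left) and from the peak centre for peaks beyond 3 kb (right). Solid lines are the KD-only peaks with H3K27ac (896 and 1246) and dashed lines the shared peaks (880 and 378); H3K27ac covers 16.96% of the TSS and 68.9% of the distal centres of the KD-only peaks.

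Base composition separated the same settings. In the 300 bp around the centre, median GC content was 61.0% near a TSS and 48.0% beyond 3 kb, and the median ratio of observed to expected CpG was 0.742 and 0.237. A ratio of at least 0.6 was found for 68.0% and 4.90%, compared with 74.2% and 6.535% of all Kap1 KD peaks in the same settings. The shared peaks had CpG ratios of 0.819 and 0.254, and the unmarked peaks 0.811 and 0.179.

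AP-1 letters were concentrated at the centres of the distal peaks. Of 13 motifs searched in windows of 300 bp (AP-1, C/EBP, CRE, E-box, ETS, forkhead, GC box, HNF4, NF-Y, NRF1, a nuclear receptor monomer site, YY1 and the TATA box), TGANTCA differed by the most percentage points between distal KD-only/H3K27ac peaks and the distal shared peaks, unmarked peaks and H3K27ac regions. It was found in 351 of 1246 (28.2%, 25.7 to 30.7%), as in the sites printed above, and in 1118 of the 6809 distal peaks of the whole Kap1 KD list (16.4%). The shares were 16.1% (12.8 to 20.2%) of 378 distal shared peaks and 9.92% (8.71 to 11.3%) of 2066 distal unmarked peaks. In windows centred on all 39593 distal H3K27ac regions, and so not on PolII peaks, the share was 11.7% (11.39 to 12.02%). Among 498 distal KD-only peaks with KAP1 and H3K27ac it was 40.2% (36.0 to 44.5%). Peaks near a TSS had 5.36% and all gene starts 5.99%. No test was made, since the motif was picked after its share was seen. With C or G alone in the middle the shares were 23.8% of the distal KD-only/H3K27ac peaks, 13.2% of the shared and 6.63% of the unmarked.

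Matches were most frequent within 100 bp of the centre, at 1.28 per kb, and fell to 0.382 per kb at 500 to 1000 bp, a ratio of 3.36. The same ratio was 1.17 for the shared and 1.31 for the unmarked distal peaks, without a match for width. Of the 378 distal shared peaks 309 were wider than 763 bp, compared with 594 of the 1246 KD-only/H3K27ac peaks, and the part of width in these ratios was not tested. The share of KD-only/H3K27ac peaks with a match was lower at higher scores. It was 38.3% (32.2 to 44.7%) in the lowest quintile of the Kap1 KD scores, 37.9% in the next, 24.5% in the middle, 17.5% in the one above and 14.5% (9.38 to 21.8%) in the highest. The shared peaks had a match in 2 of 10 in the lowest quintile, and then in 34.6, 23.5, 17.2 and 11.3%, and their intervals overlapped those of the KD-only/H3K27ac peaks in each. The unmarked peaks lay between 6.21% and 11.9% in every quintile, and in the 4 lowest their intervals did not reach those of the KD-only/H3K27ac peaks. Narrow peaks (at most 763 bp) held AP-1 letters in 36.7% of cases and wider ones in 18.9%. The same split gave 26.1% and 13.9% for the shared and 10.96% and 8.30% for the unmarked distal peaks. The share was 29.5% in introns and 27.8% between genes. It was 27.9% with H3K4me1 and 29.6% without, intervals that overlapped. For factors of hepatocytes, distal KD-only/H3K27ac peaks were set beside windows centred on all distal H3K27ac regions and beside distal shared peaks. The forkhead letters TGTTTAC were held by 6.10%, 5.28% and 5.82%, in that order. HNF4 (CAAAGTCCA) was held by 0.883%, 0.419% and 1.06% (4 of 378 shared peaks). C/EBP (TTGCNNAA) was held by 12.4%, 14.0% and 11.9%.

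**Figure D4:**
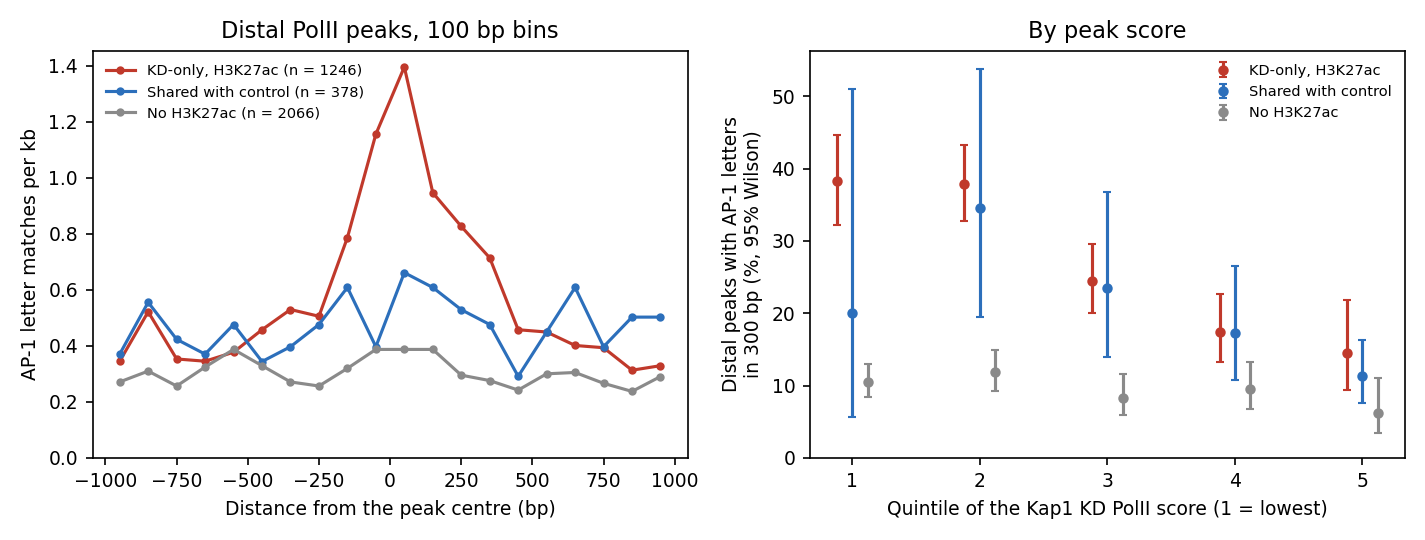
Left, matches of the AP-1 letters per kb in bins of 100 bp around the centres of distal PolII peaks; right, share of distal peaks (%) with a match in 300 bp by quintile of the Kap1 KD score, with 95% Wilson intervals over peaks. KD-only peaks with H3K27ac reach 1.40 matches per kb in the bin past the centre, and their share falls from 38.3% in the lowest quintile to 14.5% in the highest.

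At gene starts the highest-scoring KD-only/H3K27ac peaks had scores of 175 to 322. The first lay over Abhd2, a lipid hydrolase gene, at chr7:86415480-86421577, with a score of 322 and 4503 of its 6098 bp in H3K27ac. The next lay over Serpinb6b, which codes for a serine protease inhibitor, at chr13:33055319-33059256, with a score of 257. That of Cdk6, the cyclin-dependent kinase of the G1 phase, spanned chr5:3341244-3345753 with a score of 242. The peaks of Plscr2 (a phospholipid scramblase gene), Pcdh1 (protocadherin 1), Ndufaf3 (a complex I assembly factor), Ppp1r12b (a myosin phosphatase subunit), Cav2 (caveolin 2), 5730559C18Rik and Nr2f2 (the orphan receptor COUP-TFII) followed with scores of 217, 198, 195, 190, 190, 175 and 175. All but Nr2f2 also overlapped H3K4me1. The peaks of Cdk6, Ndufaf3 and Nr2f2 lay in a gap of the control numbering, so that a removed control call is possible at those 3. The Ndufaf3 peak also covered Dalrd3, and the reads of divergent or overlapping genes cannot be separated in a peak.

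The highest-scoring distal peaks were wide and lay mostly on chromosome 15. The first covered 12237 bp of an intron of Egfr, the epidermal growth factor receptor gene, at chr11:16679407-16691643, with a score of 545, 2458 bp in H3K27ac and 9335 bp in H3K4me1. Egfr held 3 such peaks over 39.2 kb, none in a control numbering gap. The second lay between genes at chr15:59557083-59563982, 80325 bp downstream of the TSS of Trib1, a pseudokinase gene, with a score of 413. An intron of Asap1, an Arf GTPase-activating protein gene, held the third at chr15:64019577-64028264 with a score of 380, 997 bp from a control peak. An intron of Nsmce2, a SUMO ligase gene of the SMC5/6 complex, held another at chr15:59380825-59388573 with a score of 369. The others lay upstream of Myo10 (364), in Fam49b (276), in Asap1 (242), in Igfbp7 (240), beyond Asap1 (227) and near Dad1 (222). Of these 10, 7 were on chromosome 15, 6 lay in control numbering gaps and all 10 overlapped H3K4me1. The nearest control peak was at 667 bp for the Fam49b peak, at 2303 bp for the second one in Asap1, at 1741 bp for the one beyond it, and at 8216 bp or more for the remaining 6.

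Among peaks centred near gene ends and beyond 1 kb of a TSS, the scores of the first 10 ranged from 96 to 264. The first covered the end of Pip4k2c, a phosphoinositide kinase gene, and the neighbouring Dtx3 at chr10:126632086-126637606. The next lay over Nfkbia, the gene of the NF-kappa-B inhibitor IkB-alpha, at chr12:56588830-56593773 with a score of 224, 904 bp from the gene end. Those over Snx21 and Acot8 (217), Psrc1 (193) and St3gal1 (159) followed. Others lay over Furin and Fes (152), Btd (126), Gm2399 (114), and S100b and Dip2a (96). Of the 10, 7 were also centred at 1 to 3 kb from a TSS, and wide peaks reached further than their centres. The Nfkbia peak, 4944 bp wide, was centred 2332 bp from the TSS of Nfkbia and so reached over it. The peaks nearest the starts of Dtx3, Snx21, Psrc1, Fes and Pitpnm1 also reached over those starts. In such peaks PolII at the gene end cannot be separated from PolII at a start. The peaks over St3gal1, Btd, Gm2399, and S100b and Dip2a did not reach the nearest TSS.

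Chromosome 15 held 260 of the peaks (11.2%), or 2.51 per Mb. This was the highest density, followed by chromosome 11 with 1.91 and chromosome 19 with 1.58. The X chromosome had 0.114 per Mb and chromosome 12 had 0.256. Chromosome 15 makes up 3.90% of the genome length, 6.92% of the H3K27ac regions, 9.85% of the control PolII list and 11.6% of the Kap1 KD list, so that its share of the KD-only/H3K27ac peaks was close to its share of the whole Kap1 KD list. It held 206 of the distal peaks (16.5%) and 41 of those near a TSS (4.58%). On chromosome 15, 89.6% of the peaks overlapped H3K4me1 and 40.0% lay in control numbering gaps, compared with 65.3% and 15.2% elsewhere. The shares of distal peaks with AP-1 letters had overlapping intervals, 26.7% (21.1 to 33.1%) on chromosome 15 and 28.5% (25.8 to 31.3%) on the others.

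**Figure D5:**
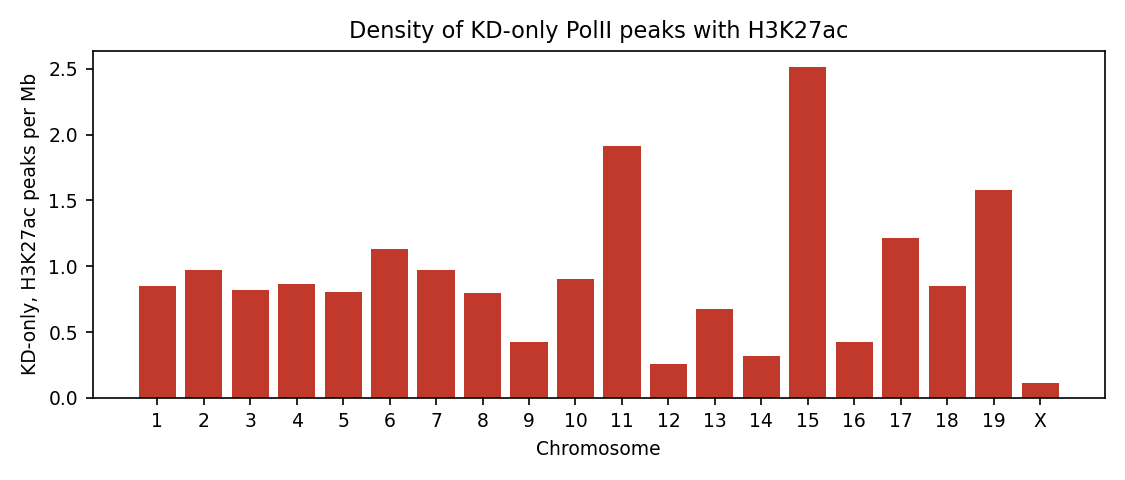
KD-only PolII peaks with H3K27ac per Mb of each chromosome (bars start at 0). Chromosome 15 has 2.51 per Mb, chromosome 11 has 1.91 and the X chromosome 0.114.

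Most of the peaks stood alone. With a joining distance of 12.5 kb, 1843 had no neighbour of their kind, 182 pairs held 364, and 33 groups of 3 or more held 114. Nsmce2 had 13 peaks over 188 kb of its introns, with scores from 41 to 369, all 13 with H3K4me1 and all 13 in a control numbering gap. Asap1 had 7 over 162 kb with scores from 65 to 380. Samd12 had 6 of low score (18 to 44) and Trio, a guanine nucleotide exchange factor gene, had 6 with scores from 45 to 211. None of these 12 peaks lay in a control numbering gap. Gm20388, an annotated record that runs across many other genes, had 7 over 4073 kb. Nsmce2, Asap1, Samd12 and Trio are all on chromosome 15. The largest group joined by distance was 9 peaks over 43.9 kb of the interferon gene cluster at chr4:88407392-88451282, across Gm13283, Gm13289, Gm13272 and Ifnz. All 9 overlapped H3K4me1, 7 lay within 1 kb of a TSS and the scores ran from 28 to 124. These genes are near-identical copies, so reads that map to several of them make the positions uncertain.

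Over gene promoters (250 bp to each side of the annotated gene start), 853 of 22367 protein-coding genes (3.81%) had a KD-only/H3K27ac peak. Of these promoters, 570 had H3K27ac and 243 had H3K4me1 in the same window. Any part of the gene was overlapped in 1448 genes (6.47%), 168 of them by at least 2 peaks. In 19 gene lists holding 632 genes, 42 promoters (6.65%) had such a peak, with a median score of 43, 15 of them with H3K4me1 under the peak and 5 in a control numbering gap.

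The genes of KAP1 partners and heterochromatin had the highest share of these lists, 5 of 26 (19.2%, against 3.81% of all genes). Chd4, the helicase of the NuRD complex, had a peak at chr6:125046152-125047541 with a score of 87. Setdb1, the H3K9 methyltransferase that KAP1 recruits, had one at chr3:95159728-95161313 with a score of 78, 75 bp of it in H3K27ac and in a control numbering gap. Dnmt1, the maintenance DNA methyltransferase, had a score of 57, and Cbx1 (HP1-beta) had 47. Hdac1, a histone deacetylase gene, had 43. Control PolII was over 9 of the 26 promoters. Neither PolII list had a peak over 8 of the 26, compared with 75.9% of the promoters of all genes. The share of 3.81% is therefore taken over many genes without PolII, and the difference was not tested.

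Several further lists also had promoter shares above the 3.81% of all genes, a difference that was not tested. The 3.81% again included the many genes without PolII over the promoter. Of 41 proteasome subunit genes, 6 (14.6%) had a peak over the promoter, led by Psmb10 and Psmd14, both with a score of 66, and then Psmb1 and Psmb4, both with 44. Control PolII was over 12 of them. Of 21 tRNA synthetase genes, 3 (14.3%) had one, Sars (74), Iars (47) and Kars (21). Of 76 mitochondrial ribosomal protein genes, 9 (11.8%) had one, with Mrpl38 (51), Mrps17 (49), Mrps10 and Mrps5 (42 each) first. Of 37 genes of respiratory complex I, 4 (10.8%) had one, Ndufv2 (46), Ndufa9 (40), Ndufa11 (39) and Ndufs4 (35). The genes of the PolII machinery had 3 of 39 (7.69%), Cdk7, the kinase of TFIIH (38), the PolII subunit gene Polr2g (35) and the elongation factor gene Supt6h (34).

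Other lists had shares near or below the 3.81% of all genes, a rate at which short lists hold few such promoters or none, so that nothing is read from their low counts. Control PolII lay over 67 of 78 cytosolic ribosomal protein promoters, and KD-only/H3K27ac peaks over those of Rpl22 (59) and Rps25 (53), or 2.56%. Of 30 heat shock and chaperonin genes, Cct8 (43) had one (3.33%) and 17 had control PolII. None of 41 translation factor, 20 glycolysis, 24 immediate early, 18 apolipoprotein and 11 actin and tubulin genes had one over the promoter. A promoter under a control peak holds a KD-only peak only where that peak misses the control one, so that these counts depend in part on the control list. Control PolII lay over 27 of the translation factor promoters, 14 of the immediate early, 6 of the glycolysis, 4 of the actin and tubulin and 2 of the apolipoprotein promoters.

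The remaining lists had shares on either side of the 3.81% of all genes. The share was 5.00% for 20 genes of hepatocyte transcription factors and 7.41% for 27 genes of cholesterol synthesis and uptake. Of 34 plasma protein genes, Trf (transferrin) had one with a score of 22 (2.94%), and of 28 cytochrome P450 genes, Cyp27a1, a sterol hydroxylase of bile acid synthesis, had one with 33 (3.57%). Among 36 nuclear receptor genes, Nr2c2 (105) and Nr1h2 (26), the gene of LXR-beta, had one over the promoter (5.56%). Of 30 cell cycle genes, Cdk6 (242) and Cdc25a (35), both in a control numbering gap, had one (6.67%).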

How the data were processed

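Hepa 1-6 ChIP-seq lists of 8 libraries were used, 1 per antibody and condition, of 13 samples in all. The other 5 were inputs without a list and were not analysed here. Reads were mapped by the authors with Bowtie to mm9. KAP1 and PolII peaks were called with MACS against input and histone mark regions with ChIP-Part, and the program for PolIII and all options are not given in the sources used here. The deposited score of each PolII peak is a whole number whose scale is not stated, and it was used only to rank and stratify peaks. Deposited positions (BED) were read as given and printed counting from 1. Read counts were not used here, so the depth is unknown.

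Regions overlapped when they shared at least 1 bp. A TSS was any annotated transcript start of a protein-coding gene (GENCODE M1 on NCBIM37, the same build as mm9), distances were taken from peak centres, and sequences were read from that assembly. Shares carry 95% Wilson intervals. Fisher's exact test (SciPy 1.17.1) compared the classes, with p-values adjusted over 8 tests by the Benjamini-Hochberg method, with the Mantel-Haenszel odds ratio over quintiles of the score as an alternative. The functions were tested on simulated lists. The peaks and gene lists were chosen with earlier results of these data known. Sites are named as the 10 highest-scoring peaks at starts, far from starts and at ends, those closest to the thresholds, the 5 genes with most peaks, and up to 4 genes per list in order of score. Hdac1, the sequences printed and the interferon cluster were added after the values were seen, and so was the AP-1 analysis. The results for a few genes are not reported here.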

Additional observations from a re-analysis of the deposited data

Results flagged for a closer look

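PolIII peaks enter no comparison above and are described here because some overlapped the peaks of interest. The KD-only/H3K27ac peaks overlapped a control PolIII peak in 6 of 2321 cases (0.259%, 95% Wilson interval 0.119 to 0.563%), and a Kap1 KD PolIII peak in 0 of 2321. The control PolIII share was 0.429% (6 of 1400) among shared peaks and 0.981% (31 of 3159) among unmarked KD-only peaks. Over all 12862 Kap1 KD peaks the shares were 1.62% for control and 0.568% for Kap1 KD PolIII, both above those of the KD-only/H3K27ac peaks. The control PolIII list holds 2772 peaks and the Kap1 KD list 431, so that the counts of 6 and 0 come from lists of unequal length and are not compared.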

How the results depend on the processing

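No paired analysis was possible because each condition has 1 library. Of 71 alternatives to the 8 tests, 60 left an odds ratio on its side of 1 and its adjusted p on its side of 0.05. The odds ratio of H3K4me1 against shared peaks, 1.08 and not past the threshold, was past it with overlap of at least 50% (1.34), peaks cut to 500 bp (1.95), the upper 50% by score (1.36), a Kap1 KD list as long as the control list (1.45) and within quintiles of the score (1.99). Against KAP1 peaks it was past it with overlap of at least 50% (1.31) and turned below 1 in the upper 50% (0.817), with lists of equal length (0.748) and without chromosome 15 (0.967). The contrast of gene starts with unmarked peaks fell from 1.94 to 1.12 with overlap of at least 50% and rose to 3.17 in the upper 50% by score and 4.14 with lists of equal length, and that of gene ends moved to 0.631 within quintiles of the score. The cause was not tested. The number of KD-only/H3K27ac peaks was 1069 in the upper 50% by score and 701 with lists of equal length, and that of promoters with one was 512 with overlap of at least 50%, 441 in the upper 50% and 269 with lists of equal length, as fewer peaks or overlaps enter. The AP-1 share of distal peaks was 20.9% in 200 bp, 42.2% in 600 bp and 23.8% with C or G in the middle, alternatives added after the values were seen. In the same order it was 9.79, 28.3 and 13.2% for shared and 6.73, 17.1 and 6.63% for unmarked peaks. Without replicates or read depth, a peak called in 1 condition only cannot be told apart from one that fell short of the calling threshold in the other library.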

Other observations

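Distal KD-only/H3K27ac peaks inside a gene were set beside the promoter of that gene. Of 538 such peaks, 167 (31.0%) lay in a gene with control PolII over the promoter, 103 (19.1%) in one with Kap1 KD PolII only and 268 (49.8%) in one with neither. Over all protein-coding genes these shares were 13.1, 10.9 and 75.9%. KAP1 lay over the promoter of the gene for 168 of the 538 (31.2%), against 15.7% of all genes, although none of these peaks overlapped KAP1 itself. Long genes can hold many distal peaks and were counted once for each peak, so these shares are given without a test.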
